A study of Mus musculus with 16 samples.

Results

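The noncoding transcripts Gas5, Snhg1, Snhg3, Snhg5, Snhg6, Snhg8, Snhg12, Snhg15 and Zfas1 were examined in sorted mouse splenic B cells. These 9 genes were taken by name from the 27928 genes of the RNA-seq table, and each had a row in it. They are host genes of small nucleolar RNAs (snoRNAs): the snoRNAs lie in their introns and are released when the introns are spliced out and trimmed. Box C/D snoRNAs guide 2′-O-methylation of ribosomal RNA and box H/ACA snoRNAs guide its pseudouridylation. The spliced host transcripts code for no long protein. Several of them, Gas5 foremost, begin with a pyrimidine tract like that of ribosomal protein mRNAs, and their short reading frames expose them to nonsense-mediated decay, so their steady level is known to follow translation and growth state. Gas5 RNA accumulates in growth-arrested cells and has been described as a decoy for the glucocorticoid receptor.

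RNA was sequenced from follicular (FO, CD21lo CD23hi) and marginal zone (MZ, CD21hi CD23lo) B cells of young adult mice from 8 weeks of age, with 2 libraries in each of 4 groups. WT mice were C57BL/6 and carried neither the floxed allele nor Cre. The cKO mice, also C57BL/6, carried Gtf2i fl/fl and a Cre recombinase expressed in the B lineage, so that the gene for the transcription factor TFII-I was deleted in B cells, and no group with Cre alone or floxed alleles alone was analysed here. The sources used here do not say whether the libraries of a group came from separate animals, so that p-values measure only the spread between these libraries, which may be technical.

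Each library held 21546552 to 25083552 reads on genes. Gtf2i itself, counted over the whole gene, had normalized read counts (reads divided by a size factor of the library) of 2040 and 1992 for WT FO, 2864 and 2471 for WT MZ, 1523 and 1531 for cKO FO, and 1782 and 1889 for cKO MZ, and all 4 cKO libraries were below all 4 WT libraries. The markers of the sort followed the labels: the summed FO markers (Fcer2a, Cd55, Ighd) were 83260 to 136500 in FO and 16740 to 34510 in MZ, and the summed MZ markers (Cr2, Cd1d1, S1pr3, Cd9) were 24220 to 28250 in FO and 102600 to 116300 in MZ. Of the other cell types, the 6 T cell markers together reached at most 75.2, dendritic cell markers 334.2, macrophage and monocyte markers 1649 and plasma cell markers 6861. The summed NK cell markers were 66.4 to 207.4 in FO and 356.8 to 490.4 in MZ, with no overlap, and their part in the FO and MZ differences was not tested. The summed B cell markers were 191900 to 223400 in WT and 156400 to 178500 in cKO, also with no overlap. The cKO MZ replicate 1 library stood apart in its summed erythroid markers (13300, against at most 1007 elsewhere) and granulocyte markers (1491, against at most 79.4), and host results that changed without it are given so. For neighbouring genes, gene lists, snoRNA rows and correlations, values without that library are not given. The genotypes also differed in sex-linked transcripts, which cannot be told apart from the genotype: Ddx3y was at 2682 to 5514 in cKO and at most 6.34 in WT, and Xist at 25930 to 47000 in WT and 21.7 to 89.7 in 3 of the cKO libraries. The cKO FO replicate 1 library stood apart with Xist at 14750 beside Ddx3y at 2682, and values without it are given beside the genotype results of some hosts. For the gene lists and snoRNA rows they are not given.

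The host genes were first placed in the genome (GENCODE M21, GRCm38, the same assembly as mm10). They lie on 7 chromosomes: Gas5 (chr1:161034422-161038539, plus strand), Snhg6 (chr1:9941959-9944118, minus), Zfas1 (chr2:167062934-167065862, plus), Snhg8 (chr3:123507552-123508404, minus), Snhg12 (chr4:132308623-132311024, plus), Snhg3 (chr4:132348014-132353686, minus), Snhg5 (chr9:88521050-88522929, minus), Snhg15 (chr11:6525591-6528760, minus) and Snhg1 (chr19:8723475-8726443, plus). The annotation places 33 snoRNA entries inside them, 10 in Gas5, 8 in Snhg1, 5 in Snhg12, 3 in Zfas1, 2 each in Snhg3 and Snhg5, and 1 each in Snhg6, Snhg8 and Snhg15. Snord80 in Gas5 and Snora16a in Snhg12 are each entered more than once at nearly the same place, so entries outnumber distinct snoRNAs. Many annotated transcripts of some hosts keep an intron (20 of 25 for Gas5, 14 of 18 for Snhg1, but none for Snhg3, Snhg6, Snhg12 and Snhg15). Of all hosts together, 31 of the 33 entries overlap bases that the annotation also counts as host exon, and a read there cannot be given to the host or the snoRNA by position alone.

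The letters of the snoRNAs separate the hosts by class. Searched in the GRCm38 sequence were the C box TGATGA within the first 20 bases together with the D box CTGA within the last 15, and, in entries of at least 100 bases without these, ACA within the last 10. Of the 33 entries, 20 held the C and D boxes, 7 held the ACA and 6 held neither set of letters. A match is a description of the sequence and no proof of function. Shown are an entry of each host measured above the floor, a pair for the mixed host Snhg12, and among them the 2 entries with a row of their own in the table (Snord87 and Gm23201), with the boxes in capitals, 5′ to 3′ as DNA:

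Snord47 in Gas5, chr1:161038082-161038158, plus strand: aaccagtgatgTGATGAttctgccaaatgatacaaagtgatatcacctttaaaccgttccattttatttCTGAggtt
Gm25855 in Snhg1, chr19:8723993-8724064, plus strand: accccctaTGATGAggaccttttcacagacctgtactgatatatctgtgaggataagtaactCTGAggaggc
Snord50a in Snhg5, chr9:88521529-88521600, minus strand: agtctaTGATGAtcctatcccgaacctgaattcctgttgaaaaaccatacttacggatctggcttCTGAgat
Snord87 in Snhg6, chr1:9942463-9942549, minus strand: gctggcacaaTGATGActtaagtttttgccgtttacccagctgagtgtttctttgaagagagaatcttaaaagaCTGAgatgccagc
Gm23201 in Zfas1, chr2:167064998-167065086, plus strand: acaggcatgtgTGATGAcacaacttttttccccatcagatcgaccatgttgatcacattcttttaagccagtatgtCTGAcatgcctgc
Snord99 in Snhg12, chr4:132310691-132310764, plus strand: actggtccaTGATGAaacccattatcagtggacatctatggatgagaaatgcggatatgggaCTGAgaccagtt
Snora61 in Snhg12, chr4:132310240-132310369, plus strand: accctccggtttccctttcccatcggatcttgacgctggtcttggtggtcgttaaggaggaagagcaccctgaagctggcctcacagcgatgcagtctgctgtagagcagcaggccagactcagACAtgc
Snora24 in Snhg8, chr3:123507937-123508066, minus strand: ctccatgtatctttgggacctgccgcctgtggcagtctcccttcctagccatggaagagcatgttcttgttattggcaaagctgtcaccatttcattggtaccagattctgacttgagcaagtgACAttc
Snora9 in Snhg15, chr11:6528033-6528165, minus strand: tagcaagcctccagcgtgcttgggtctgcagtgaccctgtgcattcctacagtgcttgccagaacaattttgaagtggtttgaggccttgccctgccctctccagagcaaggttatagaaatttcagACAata

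By these letters Gas5, Snhg1, Snhg5, Snhg6 and Zfas1 hold box C/D entries, Snhg3, Snhg8 and Snhg15 hold box H/ACA entries, and Snhg12 holds both. The 2 entries counted in the table were low, Snord87 at normalized read counts of 12.4 to 44.9 and Gm23201 at 38.1 to 85.7, against 431.9 to 795.4 and 1514 to 2980 for their hosts Snhg6 and Zfas1. Libraries of ribosomal RNA-depleted total RNA with 50-base reads were not made to capture snoRNAs.

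The first bases of the transcripts are shown because a pyrimidine tract at the start marks growth-regulated mRNAs. RefSeq (GRCm38.p6) start windows were found for 8 of the 9 hosts, all but Snhg6. Each line gives the 30 bases before and the 30 from the transcript start, with the longest unbroken run of C and T between 10 bases before and 20 after the start in capitals. RefSeq gives 2 starts for Gas5, and the downstream one is shown:

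Gas5, chr1:161035136-161035195, plus strand: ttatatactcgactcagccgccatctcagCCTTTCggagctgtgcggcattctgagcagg
Snhg1, chr19:8723457-8723516, plus strand: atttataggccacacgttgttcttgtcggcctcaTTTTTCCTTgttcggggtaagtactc
Snhg3, chr4:132353657-132353716, minus strand: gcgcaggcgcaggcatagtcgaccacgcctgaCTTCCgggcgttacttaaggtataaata
Snhg5, chr9:88522868-88522927, minus strand: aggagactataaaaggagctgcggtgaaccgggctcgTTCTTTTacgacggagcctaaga
Snhg8, chr3:123508307-123508366, minus strand: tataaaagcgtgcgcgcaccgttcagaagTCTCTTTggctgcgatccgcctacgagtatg
Snhg12, chr4:132308648-132308707, plus strand: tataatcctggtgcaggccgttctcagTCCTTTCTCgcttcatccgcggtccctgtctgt
Snhg15, chr11:6528731-6528790, minus strand: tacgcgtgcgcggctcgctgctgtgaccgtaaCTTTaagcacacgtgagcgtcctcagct
Zfas1, chr2:167062904-167062963, plus strand: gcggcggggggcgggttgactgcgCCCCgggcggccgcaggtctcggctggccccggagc

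A run of at least 5 pyrimidines was present in 6 of the 8 windows, and in 46.4% of all 32851 RefSeq windows. Runs of at least 7 were present in 4 of the 8 (Snhg1, Snhg5, Snhg8 and Snhg12) and in 17.9% of all windows. Snhg15 and Zfas1 had runs of 4. In Gas5, Snhg8 and Snhg12 the run covered the start itself.

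All hosts but Snhg3 were abundant in every B cell group. Between genes, levels were compared as normalized read counts per kilobase of annotated exon. Gas5 was the highest at 1855 ± 411 (SD, n = 8 libraries), followed by Snhg8 at 1577 ± 248, Snhg1 at 1093 ± 232, Snhg15 at 881.2 ± 271, Zfas1 at 764.8 ± 172, Snhg5 at 701.9 ± 85.3, Snhg12 at 587.8 ± 127 and Snhg6 at 551.2 ± 115. The ranges of each adjacent pair in this order overlapped over the 8 libraries. These ranges pool the 4 groups, and differences between hosts within the same library were not tested. By exon union the lowest Gas5 library (1273) was above the highest of Snhg15 (1269) and of the hosts after it, but per kilobase of the longest transcript Gas5 (1872 to 3714) and Snhg15 (965.5 to 2556) overlapped. These levels placed the 8 hosts between the 84.6 and 96.6 percentile of 14748 genes tested with a known exon length. Together the hosts took 0.0565% to 0.104% of the reads of a library, and Gas5 gave 30.6% to 42.4% of their summed normalized count.

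**Figure D1:**
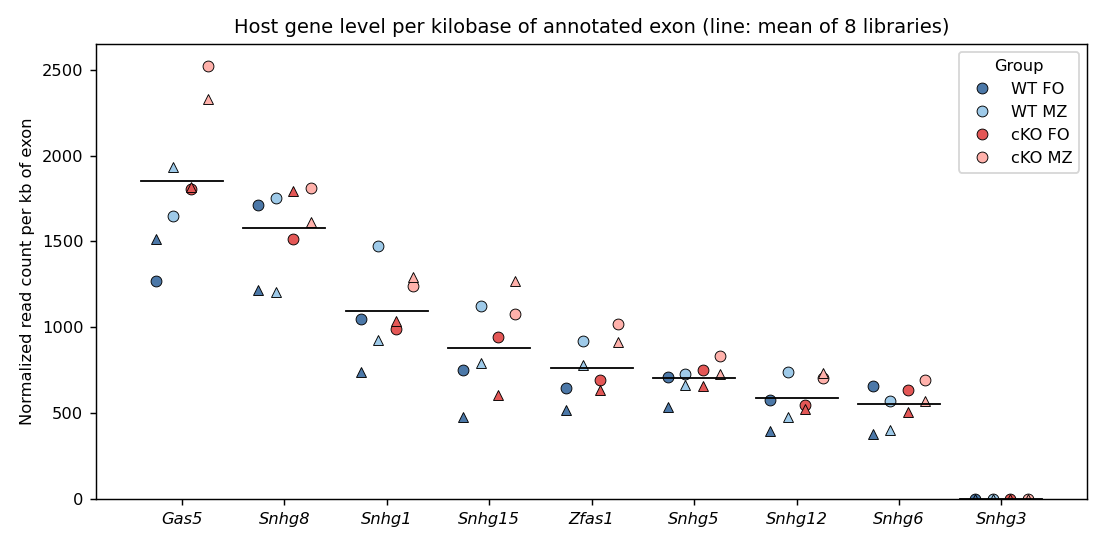
Level of each host gene in normalized read counts per kilobase of annotated exon (vertical axis), 1 point per library, coloured by group (circles are replicate 1, triangles replicate 2), with a line at the mean of 8 libraries. Gas5 and Snhg8 lie highest at means of 1855 and 1577, and Snhg3 lies at the floor.

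Snhg3 was the exception. It had no read in 7 libraries and 1 read in cKO FO replicate 2, which is under the 3 reads that a count of 0 allows, so no fold change is given for it. Snhg3 overlaps Rcc1, the gene for the nucleotide exchange factor of Ran on the same strand, and 851 of its 986 exon bases (86.3%) are annotated to another gene on either strand, among them 705 bases antisense in Gm17300. For the other 8 hosts that share was 8.32% to 20.9%. Only 135 bases of Snhg3 are its own, and whether its reads were set aside as ambiguous by the counting was not tested. Rcc1 had normalized read counts of 427.8 to 493.8 in FO and 641.4 to 834.2 in MZ, and it was called lower in FO in WT (log2 difference -0.65 ± 0.15 SE, adjusted p = 0.0269) and in cKO (-0.82 ± 0.15, adjusted p = 0.00967, limma).

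The FO and MZ subsets were compared next, within each genotype and over both. Snhg15 was called lower in FO over both genotypes, and Zfas1 and Gas5 passed the adjusted p below the fold cutoff. These were 3 of 8 hosts by the adjusted p, where 33.4% of all genes tested passed, and 1 of 8 by both cutoffs, where 18.4% did. All 8 measured hosts had log2 differences below 0 (median -0.37, against 0.0045 over all genes, of which 50.5% were above 0), and those of Snhg6 and Snhg8 changed sign when 1 of several libraries was left out. In bulk samples fewer cells of a type and less RNA per cell cannot be told apart.

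All 133 bases of Snora9 also lie in annotated exon of its host Snhg15. Snhg15 had normalized read counts of 1023 and 651.7 for WT FO against 1529 and 1080 for WT MZ. Its cKO FO libraries had 1282 and 825.4, against 1464 and 1725 for cKO MZ. Within each genotype both FO libraries were below both MZ libraries, but across genotypes the ranges overlapped, since cKO FO replicate 1 was above WT MZ replicate 2. It was 1.56-fold lower in FO over both genotypes (log2 difference -0.64, 95% interval -1.11 to -0.17, adjusted p = 0.0424, limma), and this was the only host called by both cutoffs (adjusted p no higher than 0.05, difference no smaller than 1.5-fold), where 18.4% of all genes tested were called. The call was lost without WT FO replicate 2 (-0.48, adjusted p = 0.0975), WT MZ replicate 1 (-0.51, 0.103), cKO FO replicate 2 (-0.48, 0.126), cKO MZ replicate 1 (-0.70, 0.0845) or cKO MZ replicate 2 (-0.58, 0.13), and with no filter on low values (adjusted p = 0.0623). Within a genotype the difference was -0.65 in WT and -0.63 in cKO, both at an adjusted p of 0.168.

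Zfas1, a transcript first described in mammary epithelium and host of 3 box C/D entries, had normalized read counts of 1886 and 1514 for WT FO, 2689 and 2289 for WT MZ, 2030 and 1861 for cKO FO, and 2980 and 2672 for cKO MZ. It was the only host with all 4 FO libraries below all 4 MZ libraries, a pattern held by 18.6% of all genes tested. The log2 difference was -0.55 ± 0.10 (SE) over both genotypes, or 1.46-fold, at an adjusted p of 0.00376, and -0.55 in WT (adjusted p = 0.0286) and -0.54 in cKO (adjusted p = 0.0288). Over both genotypes its adjusted p stayed between 0.00285 and 0.0213 with any 1 library left out. Within a genotype it did not: in WT it was 0.112 without WT FO replicate 2, 0.136 without WT MZ replicate 1, 0.0514 and 0.0516 without either cKO MZ library and 0.102 with only the 4 WT libraries fitted, and in cKO it was 0.0771 to 0.179 without any 1 of the 4 cKO libraries (limma). It passed both cutoffs with quantile normalization, at a log2 difference over both genotypes of -0.62 (adjusted p = 0.00214, limma).

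Gas5, the host with the most snoRNA entries, had normalized read counts of 4785 and 5684 for WT FO, 6195 and 7277 for WT MZ, 6790 and 6827 for cKO FO, and 9493 and 8754 for cKO MZ. Within each genotype FO lay below MZ with no overlap, and the cKO FO libraries lay between the WT MZ libraries. Over both genotypes the log2 difference was -0.39 ± 0.08 (SE), 1.31-fold, at an adjusted p of 0.00858. In cKO it was -0.42 (adjusted p = 0.0408) and in WT -0.36 (adjusted p = 0.073, limma). The adjusted p in cKO rose to between 0.103 and 0.218 without any 1 of the 4 cKO libraries and was 0.0656 with no filter on low values, while DESeq2 on all 8 libraries gave 0.0435 in WT.

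Snhg1 and Snhg12, which carry 8 and 5 snoRNA entries, had similar patterns over the libraries (Pearson r of 0.97, n = 8). Snhg1 had normalized read counts of 3108 and 2199 for WT FO, 4380 and 2750 for WT MZ, 2932 and 3080 for cKO FO, and 3682 and 3836 for cKO MZ. Snhg12 had 1389 and 953.3 for WT FO, 1773 and 1150 for WT MZ, 1308 and 1256 for cKO FO, and 1696 and 1768 for cKO MZ. Both separated FO from MZ in cKO and overlapped in WT, where FO was below MZ within each replicate number. Both had a log2 difference of -0.37 over both genotypes, with adjusted p of 0.118 for Snhg1 and 0.112 for Snhg12 (limma).

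The remaining 3 hosts had overlapping FO and MZ ranges in both genotypes. Snhg5, host of the paired Snord50 genes, had normalized read counts of 931.4 to 1299 in FO and 1153 to 1440 in MZ (log2 difference over both genotypes -0.16, 95% interval -0.41 to 0.09). Snhg6, host of Snord87, had 431.9 to 753.4 in FO and 462.8 to 795.4 in MZ (-0.05, -0.51 to 0.41). Snhg8, host of Snora24, had 1036 to 1531 in FO and 1026 to 1547 in MZ (-0.03, -0.39 to 0.32). All 3 intervals lay inside 1.5-fold in either direction.

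**Figure D2:**
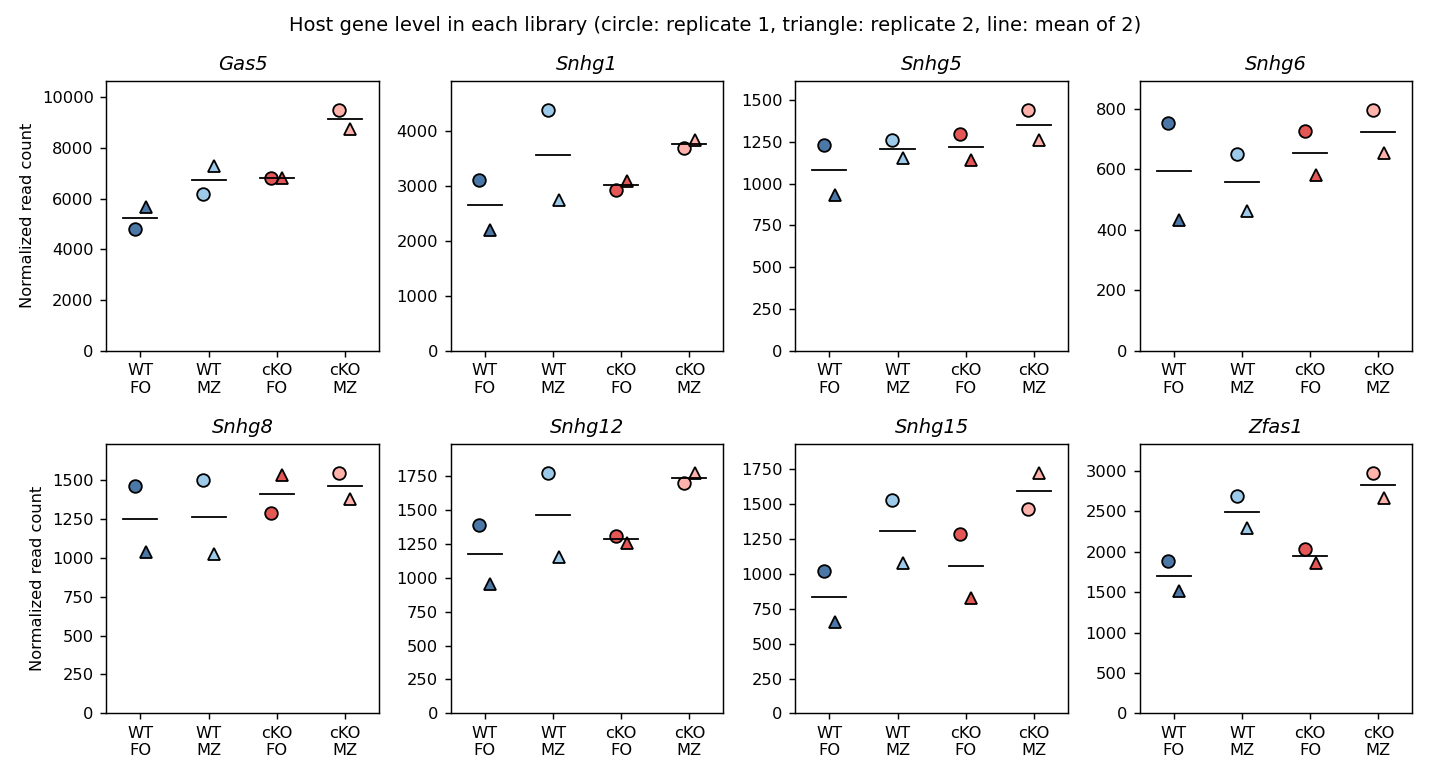
Normalized read count (vertical axis, starting at 0) of the 8 measured host genes in each of the 8 libraries, grouped by genotype and subset, with a line at the mean of the 2 libraries of a group. Zfas1 alone keeps all FO libraries below all MZ libraries, and Gas5 runs from 4785 in WT FO replicate 1 to 9493 in cKO MZ replicate 1.

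By counts, no host was called in WT (12.0% of all genes tested were) or in cKO (13.7% were) with limma, where 2 hosts in each had an unadjusted p under 0.05 (30.3% of all genes in WT and 33.4% in cKO), and DESeq2 and edgeR on the recovered reads of all 8 libraries also called none. By the adjusted p alone 1 host passed in WT (16.9% of all genes did), 2 in cKO (19.6%) and 3 over both genotypes (33.4%). FO libraries lay below MZ libraries with no overlap for 3 hosts in WT (Gas5, Snhg15 and Zfas1), where 28.2% of all genes did, and for 5 in cKO (also Snhg1 and Snhg12), where 32.0% did. With 8 measured hosts, the 0, 0 and 1 called by both cutoffs lay near these background shares.

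The cKO and WT were compared to ask whether host transcripts differed where TFII-I was deleted. All 8 measured hosts were nominally higher in cKO in both subsets, and none was called. The median log2 difference over the hosts was 0.26 in MZ, 0.20 in FO and 0.22 over both subsets, against -0.01 over all genes tested in each. Limma called 0.0339% of all genes in MZ, 0.0677% in FO and 0.108% over both subsets. DESeq2 and edgeR on all 8 libraries also called no host, and 1 host, Gas5, had an unadjusted p under 0.05 in each comparison, as did 4.04% of all genes in MZ, 2.59% in FO and 6.63% over both subsets. The summed B cell markers, lower in every cKO library than in every WT library, moved with the genotype too, and their part in these values was not tested. The direction rested on WT libraries for several hosts: without WT FO replicate 2 only 3 of 8 hosts were above 0 in FO (median -0.03), and without WT MZ replicate 2 only 5 of 8 were above 0 in MZ (median 0.06). Without cKO FO replicate 1, the library with both Xist and Ddx3y, all 8 remained above 0 in FO with a median of 0.13.

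Gas5 was the host furthest apart between genotypes. Its cKO libraries were above its WT libraries in FO (6790 and 6827 against 4785 and 5684), a pattern held by 10.9% of all genes, and in MZ (9493 and 8754 against 6195 and 7277), where Snhg6 shared it and 15.8% of all genes did. The log2 difference was 0.38 in FO (95% interval 0.11 to 0.65), 0.44 in MZ (0.17 to 0.71) and 0.41 over both subsets (0.22 to 0.60), the last being 1.33-fold. After adjustment over all genes this did not pass the threshold (adjusted p = 1.0 in FO, 0.917 in MZ and 0.246 over both subsets, limma). DESeq2 on all 8 libraries gave an adjusted p of 0.00418 over both subsets, still under 1.5-fold at 0.41, while edgeR gave 0.259. Leaving out any 1 library kept the difference over both subsets between 0.35 and 0.47.

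For the other hosts the cKO and WT ranges overlapped in both subsets, except for Snhg6 in MZ (651.1 and 462.8 in WT, 795.4 and 652.7 in cKO). Over both subsets the log2 differences were 0.32 for Snhg15, 0.29 for Snhg6, 0.22 for Snhg12, 0.21 for Snhg8, 0.19 for Zfas1, 0.17 for Snhg5 and 0.16 for Snhg1, with all 95% intervals including 0 and adjusted p from 0.776 to 0.898 (limma). Without cKO FO replicate 1 they were 0.16 for Snhg15, 0.16 for Zfas1 and 0.18 for Snhg1. In FO the difference of Snhg15 fell from 0.33 to 0.0156 without that library. The interaction of genotype and subset, which asks whether the cKO difference was larger in MZ than in FO, gave host values from -0.09 to 0.21 and no call (0.0% of all genes were called, and 94 of 14761 had an unadjusted p under 0.05), with no host at an unadjusted p under 0.05 and none called by DESeq2 or edgeR.

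**Figure D3:**
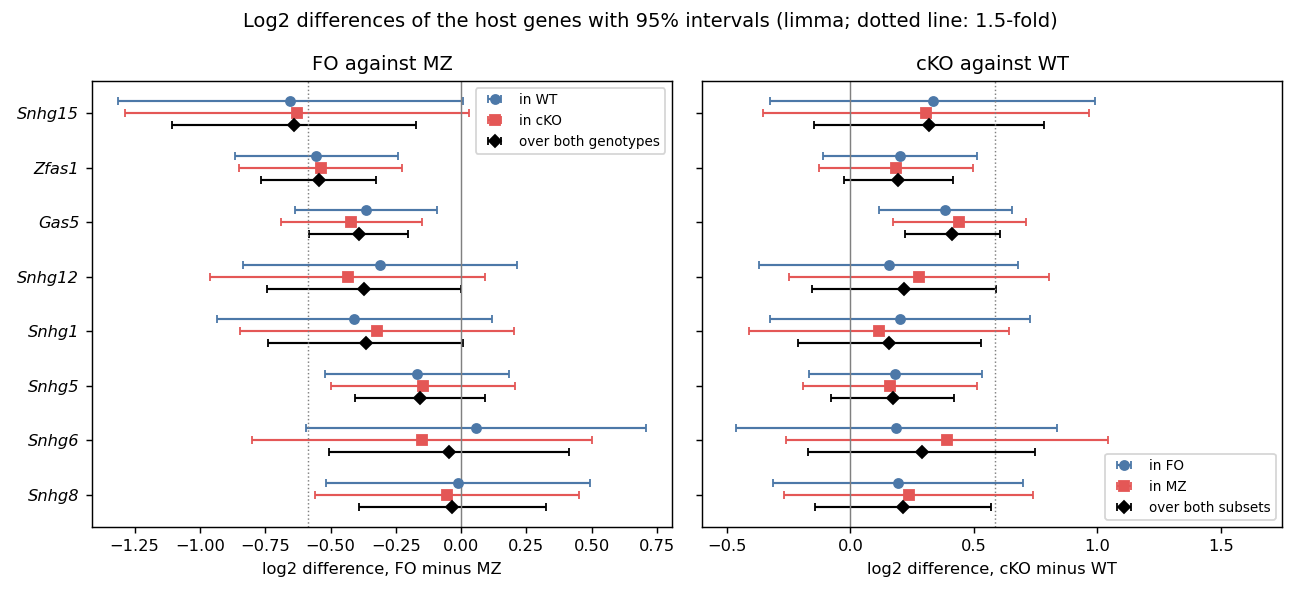
Log2 differences (horizontal axis) of the 8 measured hosts, FO minus MZ on the left and cKO minus WT on the right, with 95% intervals from limma (circles and squares within a genotype or subset, diamonds over both), and a dotted line at 1.5-fold. The intervals over both genotypes exclude 0 for Snhg15, Zfas1, Gas5 and Snhg12 on the left, and on the right the interval over both subsets excludes 0 for Gas5 (0.22 to 0.60).

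Libraries of the same group also differed from each other. In WT, replicate 1 was above replicate 2 for 7 of 8 hosts in FO and for 7 of 8 in MZ, with median log2 differences of 0.50 in each. The exception both times was Gas5, at -0.25 in FO and -0.23 in MZ. Gas5 therefore made up 30.6% and 31.0% of the summed host count in WT FO and WT MZ replicate 1, and 42.4% and 42.3% in replicate 2, so that its share of the hosts followed the replicate in WT and not the subset. In cKO its share was 38.5% to 41.1%. The largest gap was that of Snhg6 in WT FO, 753.4 against 431.9. In cKO 5 of 8 hosts were higher in replicate 1 in each subset, with medians of 0.09 and 0.14.

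Other transcripts shared this spread. The 75 snoRNA rows that passed the filter had median differences of 0.65 between the WT FO and 0.39 between the WT MZ libraries, and 10 of 10 and 9 of 10 other noncoding hosts were higher in replicate 1. Ribosomal protein genes were higher in replicate 1 for 77 of 81 among WT FO and 76 of 81 among WT MZ libraries, with smaller medians of 0.26 and 0.14, and also for 77 of 81 in cKO MZ (median 0.15), against 21 of 81 in cKO FO (median -0.09). Over all genes tested the medians were -0.02 and -0.01. The part of this spread in the genotype differences was not tested beyond leaving out each library.

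**Figure D4:**
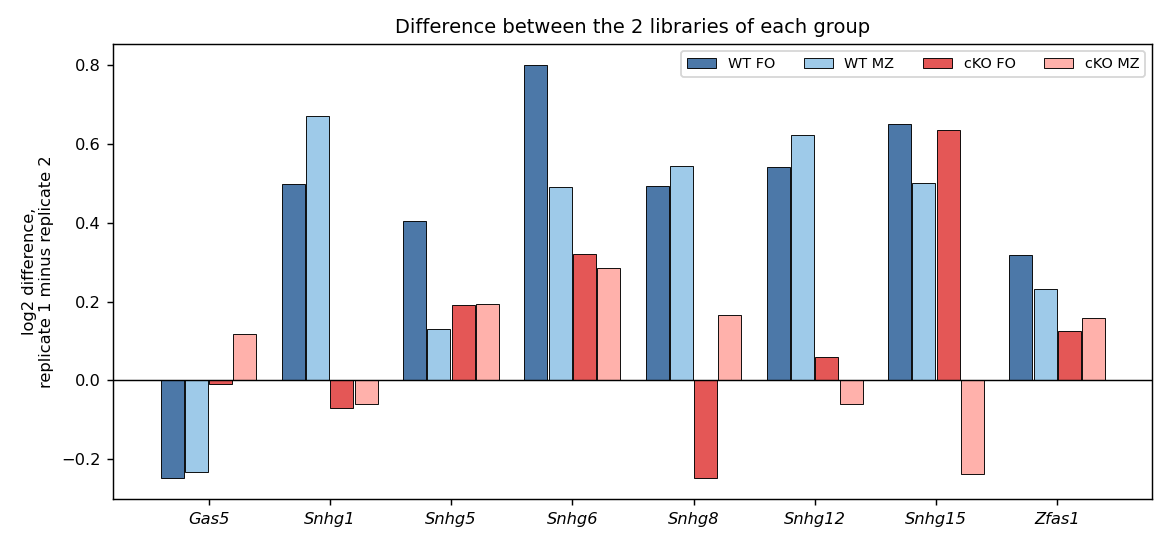
Log2 difference between replicate 1 and replicate 2 (vertical axis) of each measured host, 1 bar for each group. In WT the bars are above 0 for 7 of 8 hosts in both subsets and below 0 for Gas5 (-0.25 and -0.23).

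The protein-coding genes beside the hosts were then examined, since 6 hosts with a measured level overlap such a gene or lie within 2 kb of it. Zfas1 begins head to head with Znfx1, an RNA helicase gene, and they share 82 exon bases on opposite strands. Znfx1 had normalized read counts of 2645 to 3395 in FO and 1909 to 2574 in MZ, higher in FO (log2 difference over both genotypes 0.34 ± 0.10 SE, adjusted p = 0.0339, limma, short of 1.5-fold), where Zfas1 was lower. Gas5 overlaps the start of Zbtb37, a zinc finger gene on the other strand, and Zbtb37 had 2328 to 3631 in FO and 1744 to 2491 in MZ (0.41 ± 0.16, adjusted p = 0.0853). Snhg8 lies downstream of Prss12, a serine protease gene on the other strand. Prss12 was called higher in FO in both genotypes, with 118.9 to 407.6 in FO and 15.4 to 43.3 in MZ (3.32 ± 0.28 over both, adjusted p = 0.000126), while Snhg8 differed by -0.03.

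The host-to-neighbour log2 ratio of each library was tested between the 4 FO and the 4 MZ libraries for 6 pairs with an exact two-sided permutation test, whose smallest possible p is 0.0286. The FO minus MZ difference was -0.80 for Gas5 and Zbtb37, -3.35 for Snhg8 and Prss12 and -0.88 for Zfas1 and Znfx1, each at that smallest p (exact permutation test, adjusted p = 0.0571 over the 6 pairs). The other 3 pairs had p of 0.229 (Snhg1 and Slc3a2, an amino acid transporter subunit gene), 0.114 (Snhg6 and Mcmdc2, a meiotic recombination gene) and 0.171 (Snhg12 and Trnau1ap, a selenocysteine incorporation gene) by the same exact test. Mcmdc2 was called higher in FO over both genotypes at a low level (log2 difference 0.86, adjusted p = 0.0485, limma), with 19.1 to 50.9 in FO and 16.0 to 24.5 in MZ. It shares 127 exon bases with Snhg6 on the other strand, and the strand setting of the counting is not given in the sources used here.

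**Figure D5:**
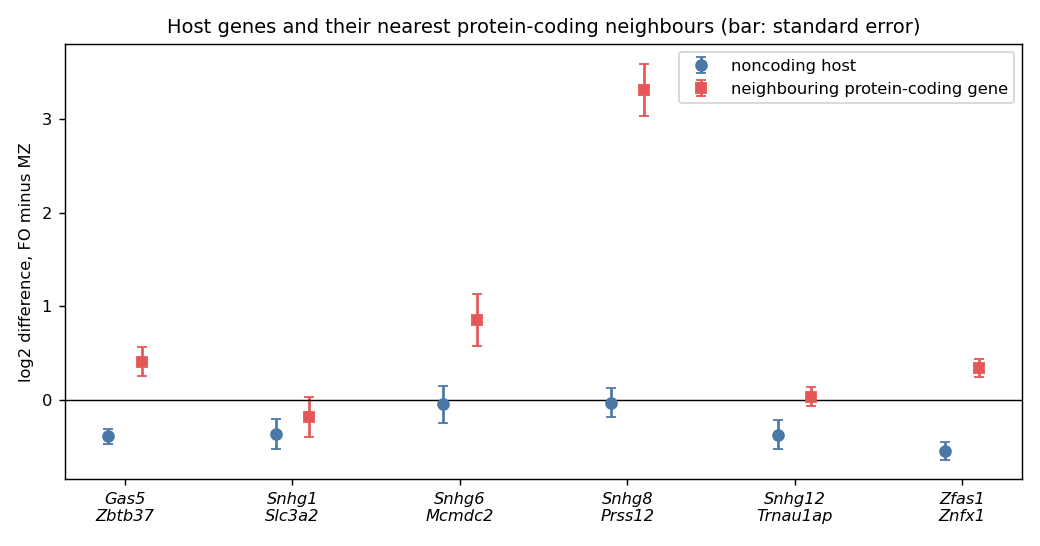
Log2 difference between FO and MZ over both genotypes (vertical axis) for 6 hosts (circles) and the protein-coding gene overlapping or within 2 kb of each (squares), with standard errors from limma. Gas5 and Zfas1 lie below 0 and their neighbours above it, and Prss12 lies at 3.32 beside Snhg8 at -0.03.

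Genes of related function were counted by lists of textbook members. Among 10 tested rows of other noncoding snoRNA hosts, Snhg18 was called lower in FO in both genotypes and none was called in the other direction. Among all genes 7.41% were called lower in WT, 8.18% in cKO and 10.9% over both genotypes, so 1 of 10 is near the background. Snhg18 had normalized read counts of 68.9 and 41.9 for WT FO, 192.6 and 164.8 for WT MZ, 42.6 and 68.4 for cKO FO, and 189.4 and 206.2 for cKO MZ, with no overlap between subsets. Its log2 difference over both genotypes was -1.78 ± 0.22 (SE, adjusted p = 0.000796, limma), a wider gap than that of any of the 8 measured hosts, which was not tested as a difference between genes. Snhg17 also passed the adjusted p (-0.34, adjusted p = 0.0109) but not the fold cutoff. Between genotypes all 10 rows were above 0 over both subsets (median 0.18), with no call by limma, DESeq2 or edgeR and none at an unadjusted p under 0.05.

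The counts that follow stand against 10.9% of all genes called lower in FO over both genotypes, 7.45% called higher and 44.1% at an unadjusted p under 0.05. Of 20 protein-coding snoRNA hosts, Rcc1 and Eif4a1, a translation initiation helicase gene, were called lower in FO over both genotypes (Eif4a1 -0.63, adjusted p = 0.00403, limma) and none higher. Of 15 snoRNP proteins and assembly factors none was called by limma, DESeq2 or edgeR over both genotypes, though 7 had an unadjusted p under 0.05. Nop58, a core box C/D protein, had the smallest p (-0.35, adjusted p = 0.00268). Of 17 translation factor genes with a 5′ terminal pyrimidine tract Npm1, a nucleolar chaperone gene, was called lower in FO (-0.61, adjusted p = 0.000643). Of 81 ribosomal protein genes 2 were called lower, Rplp0 (-0.62) and Rpl23a (-1.09), and 75 were below 0. Of 17 nonsense-mediated decay factors Upf3b was called lower (-0.70, adjusted p = 0.000193), while the list's median was 0.13. Of 7 glucocorticoid receptor and response genes 2 were called higher in FO, Sgk1 (0.85, adjusted p = 0.00234) and Tsc22d3 (0.95, adjusted p = 0.0147), both known targets of the receptor. No member of these lists was called between genotypes over both subsets by limma, DESeq2 or edgeR. Of all genes 6.63% had an unadjusted p under 0.05 in this comparison and 46.5% were above 0. At that p there were 36 of 81 ribosomal protein genes (76 of 81 above 0, median 0.20), 3 translation factor genes, 2 protein-coding hosts, 2 snoRNP genes, 1 decay factor and none of the glucocorticoid list.

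The transcripts most like the hosts over the 8 libraries were sought among genes with a mean normalized read count of at least 100. With the mean of the centred hosts, the highest Pearson r was that of Sod1 (0.99), a superoxide dismutase gene, followed by Rpl23 (0.98), Rpl4 (0.98), Erp44 (0.98) and Taf1d (0.98), of which Rpl23 and Rpl4 code for ribosomal proteins and Taf1d for a subunit of the RNA polymerase I selectivity factor. With Gas5 alone they were Mir6236, Ttc27 and Ppp1r14b, each at 0.97. Pearson r compares the pattern and not its size: Ttc27 ran only from 621.7 to 665.8, where Gas5 ran from 4785 to 9493. The 8 libraries share the 4 groups and their library differences, and 118 of 10170 genes had r above 0.9 with the host mean, so the order is a description. Between pairs of hosts r ran from 0.17 for Gas5 with Snhg8 to 0.97 for Snhg1 with Snhg12, with a median of 0.75 over 28 pairs.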

How the data were processed

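The authors sequenced ribosomal RNA-depleted total RNA of sorted FO and MZ B cells as single-end reads of 50 bases, aligned them to mm10 with HISAT2, counted genes with featureCounts and htseq-count and divided the counts by DESeq2 size factors. The deposited values are this normalized signal (a count divided by a size factor) for 27928 genes in 8 libraries. Tool versions, annotation and strand setting are not given in the sources used here. Whole reads were recovered from the steps of the values (100% whole within 0.01 of a read, 21546552 to 25083552 per library), and 256343 blank lines were left out. The 8 ATAC-seq samples were not analysed here. Extraction is given as Qiazol in the labels and as RNeasy in the study's methods.

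Groups came from the labels. The test was limma 3.58.1 (R 4.3.3, lmFit and eBayes with trend) on log2(normalized count + 1), which understates changes of low genes, with all 8 libraries in 1 fit of 4 groups. It covered 14761 genes with a mean of at least 10, with Benjamini-Hochberg adjustment over all of them, and calls needed an adjusted p no higher than 0.05 with a difference no smaller than 1.5-fold. Intervals are 95%. The test was checked on simulated data with genes changed by a log2 fold of 1. It recovered 41 of 100 for FO against MZ in WT and 62 of 100 over both genotypes. For cKO against WT in MZ it recovered 41 of 100. The changed genes were drawn from all genes tested, most of them at lower levels than the hosts, so these shares do not measure recovery for the hosts. The simulated fold was also larger than any host difference in the main fit. Recovery of host-sized differences was not simulated, and a host that was not called may still differ. Alternatives were DESeq2 1.42.0 and edgeR 4.0.16 on the recovered reads, another pseudocount, scaling, filter, cutoffs, a replicate block and each library left out. Levels between genes were divided by the union of exons in GENCODE M21. Counting error is small beside the spread, since the lowest of the 8 measured hosts had 454 reads in a library.

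Named were the 9 hosts, genes overlapping or within 2 kb of them, snoRNAs inside them, Gtf2i, up to 4 called members of each list (otherwise the member with the smallest p), and the 5 and 3 genes most like the host mean and Gas5. Snhg17 and the sex-linked gene were added after their values were seen. The members and lists were chosen with earlier results of these data known.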

Additional observations from a re-analysis of the deposited data

How the results depend on the processing

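No host was called between genotypes or in the interaction under any alternative run. Between FO and MZ the number of hosts called changed with the setting. In WT it was 0, and 1 with quantile normalization (Zfas1), with no fold cutoff (Zfas1) and 0 to 2 when 1 library was left out. In cKO it was 0, and 1 with quantile normalization (Zfas1), 1 with DESeq2 on the 4 libraries compared (Snhg15) and 2 with no fold cutoff (Gas5 and Zfas1), and 0 whichever library was left out. Over both genotypes it was 1, and 0 with no filter on low values, 0 with a cutoff of 2-fold, 2 with quantile normalization (Zfas1 and Snhg15), 3 with no fold cutoff and 0 to 2 with 1 library left out. The cause was not tested, except that a fold cutoff decides by construction. The labels share replicate numbers between groups and do not say that a number marks a shared animal. The correlation over genes of replicate 1 minus replicate 2 was 0.59 between WT FO and WT MZ and -0.0015 between cKO FO and cKO MZ. Between groups of different genotype it ran from -0.30 to 0.29. The main fit did not pair the libraries, and whether the WT numbers mark a pairing was not tested. With the number as a block the count of hosts called was the same in every comparison, at 1 over both genotypes and 0 otherwise. With the numbers of cKO MZ exchanged, an alternative chosen after seeing the data, it was 1 in WT, 1 in cKO and 1 over both genotypes.

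Of 880 log2 differences of single hosts under the alternatives 829 kept their direction and side of the threshold, and 27 changed sign. With quantile normalization Snhg6 over both genotypes was 0.0069. The others came from leaving out 1 library. For FO minus MZ in WT the ranges were -0.35 to 0.46 for Snhg6, -0.37 to 0.0312 for Snhg5, -0.28 to 0.26 for Snhg8 and -0.62 to 0.0008 for Snhg12. In cKO they were -0.18 to 0.0686 for Snhg8 and -0.31 to 0.01 for Snhg6. Over both genotypes they were -0.25 to 0.15 for Snhg6 and -0.17 to 0.10 for Snhg8. For cKO minus WT in MZ they were -0.0338 to 0.59 for Snhg12, -0.036 to 0.51 for Snhg8 and -0.22 to 0.45 for Snhg1. In FO they were -0.12 to 0.43 for Snhg12, -0.0194 to 0.38 for Snhg5, -0.21 to 0.59 for Snhg6, -0.0541 to 0.44 for Snhg8 and -0.0483 to 0.45 for Snhg1, and the median over the hosts ran from -0.0338 to 0.433. Over both subsets Snhg1 ran from -0.0099 to 0.33. A lone remaining library is assumed there to vary like the other groups. Over all genes, DESeq2 called 48 in place of 5 between genotypes in MZ, 25 in place of 10 in FO and 69 in place of 16 over both subsets, and limma on the 4 libraries compared called 4 in FO. Per kilobase of the longest annotated transcript in place of the exon union, Gas5 stayed highest at 2729, and Snhg15 moved to 1774, above Snhg8 at 1734. The ranges of Gas5 and Snhg15 over all libraries then overlapped, and their difference within the same library was not tested. Depth did not limit the 8 measured hosts. For Snhg3 it allows no statement beyond its floor.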

Other observations

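The table holds 254 rows of annotated snoRNA genes, of which 75 passed the filter on low values and 7 had a mean normalized read count of at least 100. Their summed normalized read count was 2534 to 3751 per library. Between FO and MZ over both genotypes 3 were called higher in FO and 2 lower (median log2 difference -0.04), where 7.45% of all genes were called higher and 10.9% lower, and 8 of 8 measured hosts were below 0 with a median of -0.37. A difference between the 2 groups of genes was not tested. The 1095 annotated long noncoding genes tested had a median of 0.04 in the same comparison, with 99 called higher and 140 lower. Between genotypes over both subsets 52 of the 75 snoRNA rows were above 0 (median 0.18), with none called by limma, DESeq2 or edgeR and none at an unadjusted p under 0.05.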
